A study of Sus scrofa with 8 samples.

Results

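The SLC25 genes encode the mitochondrial carrier family, and 35 of them were described here in the right ventricle of pigs. They were found among 31908 gene models as the genes whose name begins with SLC25A and that had 10 or more counts in 4 or more of the 8 libraries. Of 42 genes with such a name, 7 missed that minimum. The libraries came from bulk RNA of the free wall of the right ventricle of Yorkshire Cross pigs, 1 animal per library. Banding of the main pulmonary artery, which raises the load on the right ventricle, was done in 4 castrated males at 4.5 ± 0.6 weeks of age and 6.4 ± 1.3 kg. The band was tightened to a peak right ventricular systolic pressure of about 30 to 40 mmHg. The 4 controls were pigs matched roughly for age and weight that were housed for 8 weeks with no treatment. No sham operation is named, so the surgery and the band cannot be told apart. How long after banding the tissue was taken is not given in the sources used here. Sex is another unknown, because the labels do not state it for the controls. The Y-linked gene DDX3Y was at 44.7 to 61.1 CPM (counts relative to the TMM-scaled library size) in banded pigs and 52.4 to 64.2 CPM in controls, so Y-linked transcripts were present in all 8 animals.

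Mitochondrial carriers are inner membrane proteins built from 3 similar repeats. They exchange nucleotides, phosphate, carboxylates, amino acids, acylcarnitines, cofactors and metal ions between cytosol and matrix. In heart muscle the ADP/ATP carriers export newly made ATP and the phosphate carrier supplies the phosphate for its synthesis, so both stand next to ATP synthase in oxidative phosphorylation.

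Depth was 31033679 to 34183338 counts per library, and transcripts of the mitochondrial genome took 30.52% to 43.93% of them. The 35 genes together took 0.474% to 0.601% of the counts in banded pigs and 0.53% to 0.634% in controls. The tissue label was met by ventricular muscle markers: MYL2, the ventricular myosin light chain, was at 14317 to 20446 CPM in banded pigs and 7651 to 10891 CPM in controls, while MYL4, its atrial relative, was at 6.82 to 35.6 CPM in banded pigs and 2.94 to 16.6 CPM in controls. The 7 tested cardiomyocyte markers summed to 54070 to 66690 CPM in banded pigs and 42510 to 54840 CPM in controls, with overlap. MYL2 was the 1 marker of the 7 that was called, and rose in banded pigs (log2 fold change 0.91 ± 0.17, SE, edgeR quasi-likelihood adjusted p = 0.0113). Over the 7 markers, 4 log2 fold changes were positive and 3 negative. Every banded pig was above every control for ACTN2 (log2 fold change 0.60 ± 0.17, adjusted p = 0.0585) and TNNT2 (0.26 ± 0.15, adjusted p = 0.338). TNNI3, cardiac troponin I, was at 2.44 to 11.3 CPM in banded pigs and 12.6 to 20.6 CPM in controls (log2 fold change -1.25 ± 0.39, adjusted p = 0.0898). TNNT2 was far above TNNI3, at 9319 to 10165 CPM in banded pigs and 6600 to 9027 CPM in controls. Whether the TNNI3 gene model is complete was not tested. Some libraries stood apart. Banded 3 had the lowest Spearman correlations with the other banded libraries (0.9582 to 0.9641 across genes), and control 4 the lowest with the other controls (0.9683 to 0.9702). The summed level of 5 erythroid markers, which carry blood RNA, reached 1787 CPM in banded 4, against 128.9 to 173.2 CPM in the other banded pigs and 74.69 to 321.1 CPM in controls. Summed macrophage markers (6 genes) were at 540.4 to 1020 CPM in banded pigs and 331.9 to 538.2 CPM in controls. Summed skeletal muscle markers (4 genes) were at 11430 to 22180 CPM in banded pigs and 5693 to 7627 CPM in controls. Most of that sum was ACTA1, an actin that heart muscle also makes, at 14933 ± 4638 CPM in banded pigs and 6125 ± 749 CPM in controls (SD, n = 4 each), while the skeletal troponin gene TNNI2 was at 0.0695 to 1.34 CPM in banded pigs and 0.309 to 0.792 CPM in controls. The macrophage and skeletal muscle sums were apart between the groups, while the fibroblast, endothelial, smooth muscle, lymphocyte, neutrophil and adipocyte sums overlapped. Single genes of the overlapping lists did differ. CFD, an adipocyte marker, was at 27.5 to 86.6 CPM in banded pigs and 124 to 212 CPM in controls (adjusted p = 0.0288). PDGFRA, a fibroblast marker, was at 35.7 to 47.7 CPM in banded pigs and 55.3 to 69.0 CPM in controls (adjusted p = 0.0480). Both were called lower, and no marker of the overlapping lists was called higher. The smooth muscle markers RGS5 (lower) and CNN1 (higher) did not overlap and were not called. No marker of the cell type lists was at 0 in all libraries other than 1 neutrophil gene, and the part of cell composition in the results was not tested. The labels give no batch.

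Few carrier genes differed between banded and control ventricles. Of the 35, 1 rose and 1 fell at an adjusted p under 0.05 (edgeR quasi-likelihood F test, Benjamini-Hochberg over all 13697 genes tested, 4 pigs per group). That is 5.71% of the family, against 6.97% of all genes tested (3.47% higher and 3.5% lower), a share near the background. SLC25A23 was the gene that rose, and SLC25A29 the gene that fell. The log2 fold changes were positive for 17 carriers and negative for 18. Their median was -0.01, against 0.02 over all genes, and the median size of a change was 0.238 on the log2 scale, against 0.268 over all genes. Banded and control values did not overlap for 3 carriers (8.57%), against 15.9% of all genes. At an unadjusted p under 0.05 there were 7 carriers (20%), against 23.8% of all genes. The test has limited reach with 4 pigs per group: on simulated counts for this comparison (13505 genes) a 1.5-fold change was detected in 6.15% of the altered genes and a 2-fold change in 52.3%. In bulk tissue, fewer cells of a type and less RNA per cell cannot be told apart. Only SLC25A23 was called without control 2 and when libraries were scaled by nuclear respiratory chain and ATP synthase counts. Over all genes, 399, 415 and 409 were called without control 1, 2 or 3, against 954 with all 8 pigs.

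**Figure D1:**
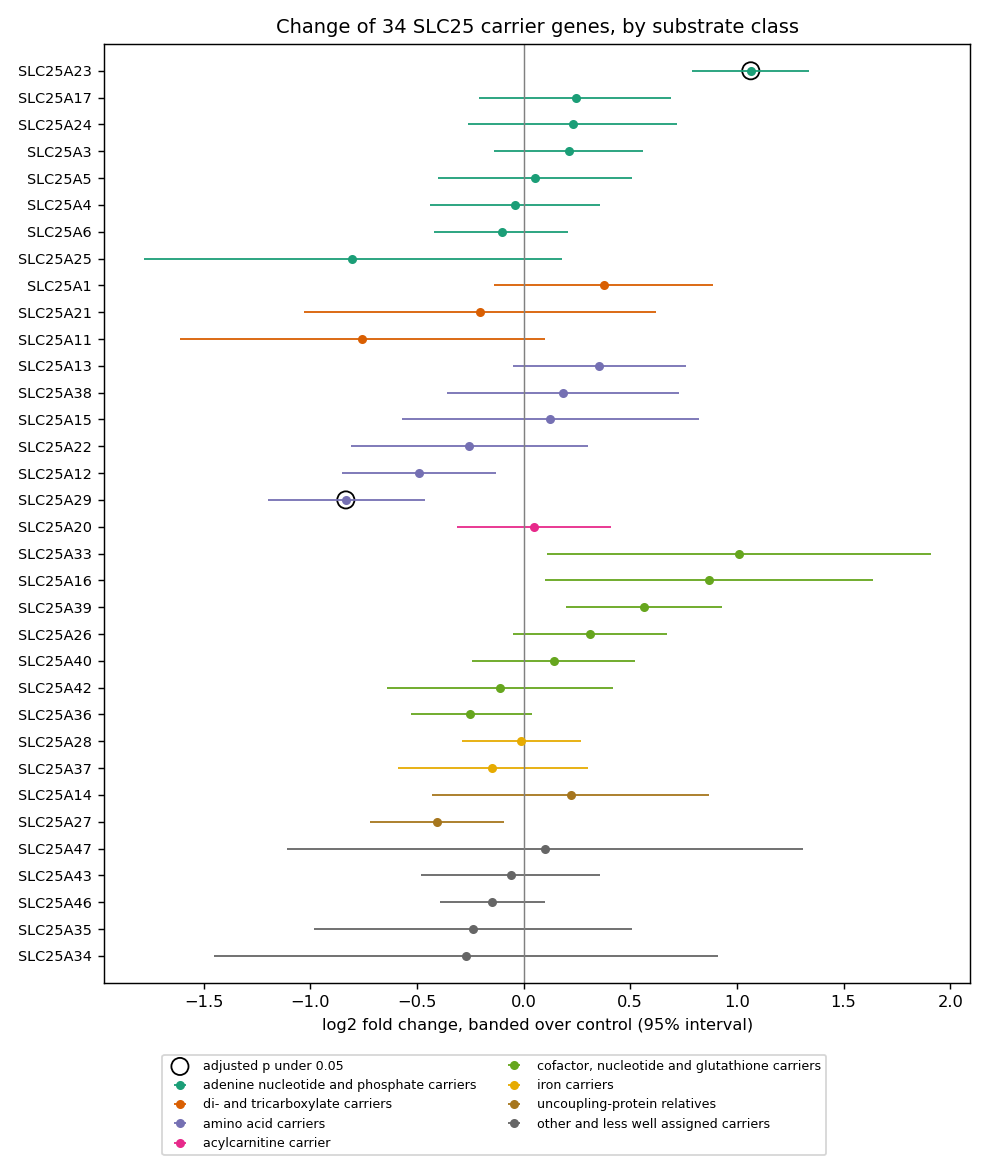
Log2 fold change of 34 carrier genes, banded over control, with its 95% interval from the edgeR fit (4 pigs per group), grouped and coloured by substrate class. Rings mark the genes with an adjusted p under 0.05, SLC25A23 at 1.07 and SLC25A29 at -0.83, and most of the other intervals cross 0.

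The levels of the carriers spanned a wide range. Levels between genes are given as RPKM, CPM divided by the kilobases of the gene model. SLC25A4, the ADP/ATP carrier of heart and skeletal muscle, averaged 774 ± 165 RPKM in banded pigs and 796 ± 102 RPKM in controls (SD, n = 4 each) and ranked first. SLC25A3, the phosphate carrier, followed at 400 ± 80.9 RPKM in banded pigs and 345 ± 13.7 RPKM in controls. SLC25A6, another ADP/ATP carrier, came next at 116 ± 14.4 RPKM in banded pigs and 124 ± 11.14 RPKM in controls. These 3 genes held 87.4% ± 1.06 of the summed RPKM of the family in banded pigs and 87.9% ± 0.816 in controls. In all, 9 carriers averaged over 10 RPKM, 19 lay between 1 and 10 RPKM and 7 were below 1 RPKM.

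**Figure D2:**
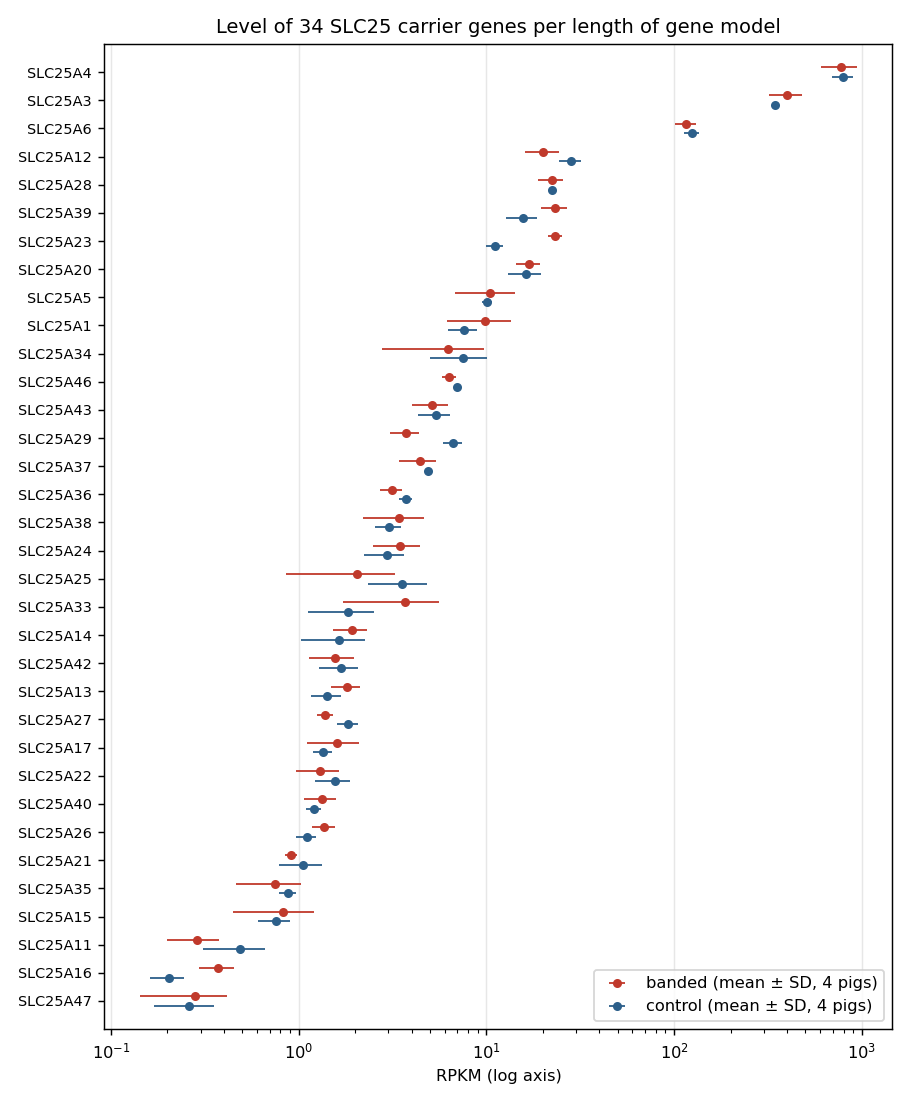
Level of 34 carriers in RPKM on a log axis, as mean and SD over 4 banded and 4 control pigs, sorted by the mean over all 8. SLC25A4, SLC25A3 and SLC25A6 lie far above the rest, and the groups lie side by side for most genes; SLC25A23 is an exception, at 23.3 RPKM in banded pigs and 11.13 RPKM in controls.

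Some of these levels were set by how gene models share exons. Under the counting command given in the file header, read pairs that overlap exons of more than 1 gene model on their strand are not assigned. SLC25A6, on an unplaced scaffold, shares 67.93% of its exon bases with ASMTL, and SLC25A34 shares 69.68% with FBLIM1. The shared part was 36.67% for SLC25A11 (with PFN1), 22.84% for SLC25A16 (with DNA2) and 21.33% for SLC25A38 (with an unnamed model). SLC25A13 shares 4.08% with another unnamed model. The levels of these 6 genes count only part of their length and are uncertain. Of the genes that missed the count minimum, SLC25A44, a branched-chain amino acid carrier, had 0 to 4 counts, and its model shares 87.01% of its bases with PMF1. SLC25A47 was the member nearest the minimum, with 10 or more counts in 6 libraries. Just outside it, SLC25A41 and SLC25A45 reached 10 counts in 2 libraries each. SLC25A2 and SLC25A48 reached 10 counts in 1 library, and SLC25A31 and SLC25A53 in none.

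Among the carriers of adenine nucleotides and phosphate, SLC25A23 rose and none of the other 7 members passed the test. SLC25A23 is a calcium-regulated ATP-Mg/phosphate carrier that adjusts the adenine nucleotide pool of the matrix. Its gene model (ENSSSCG00000013550) lies on chromosome 2 at 72625531 to 72641796, plus strand, in Sscrofa11.1. SLC25A23 was at 130, 107, 119 and 114 CPM in banded 1 to 4, and at 64.4, 55.7, 50.4 and 54.5 CPM in controls 1 to 4. Every banded pig was above every control, and the lowest banded value exceeded the highest control value by far more than the spread within either group. The log2 fold change was 1.07 ± 0.13 (SE, 95% interval 0.79 to 1.34, adjusted p = 0.000899). It ranged from 1.01 to 1.14 when single libraries were left out. The authors' deposited table gives -1.06 ± 0.144 for SLC25A23 for control over banded on the log2 scale, which is the same direction, with an adjusted p of 4.43e-11. SLC25A41, the paralogue that follows SLC25A23 on the same strand at 72647095 to 72655473, had 3 to 8 counts in banded pigs and 7 to 15 counts in controls, too few to enter the family by the rule.

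SLC25A24 and SLC25A25, the other ATP-Mg/phosphate carriers, did not pass the test. SLC25A24 was at 13.1, 14.4, 20.9 and 11.2 CPM in banded 1 to 4, and at 9.18, 11.4, 13.8 and 16.3 CPM in controls 1 to 4 (adjusted p = 0.576). SLC25A25 was at 4.99, 4.46, 13.7 and 14.9 CPM in banded 1 to 4, and at 11.7, 12.8, 17.4 and 24.4 CPM in controls 1 to 4 (log2 fold change -0.80 ± 0.43, adjusted p = 0.304). In the authors' deposited table SLC25A25 is at 1.03 ± 0.381 for control over banded on the log2 scale, with an adjusted p of 0.0588. Under the alternatives that did not leave out a single pig its log2 fold change was -1.18 to -0.79 (adjusted p 0.0559 to 0.429). For SLC25A25 banded 1 and banded 2 lay below all controls, whereas banded 3 and banded 4 lay within the control range. The log2 ratio of SLC25A23 to SLC25A25 was 3.70 ± 0.93 in banded pigs and 1.69 ± 0.58 in controls (SD, n = 4 each). The 4 banded ratios all lay above the control ratios, a difference of 2.01 with an exact two-sided permutation p of 0.0286, the smallest that 4 against 4 can give. Adjusted over the 11 pairs of related carriers compared, p was 0.157, and no pair passed. The log2 ratio of SLC25A23 to SLC25A24 averaged 2.78 ± 0.39 in banded pigs and 1.94 ± 0.48 in controls, with overlap (exact permutation p = 0.0571, n = 4 each).

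The ADP/ATP carriers themselves did not pass the test, and their relative levels did not differ beyond the spread between pigs. SLC25A4 was at 3723, 2716, 2915 and 4286 CPM in banded 1 to 4, and at 3325, 3811, 2959 and 3934 CPM in controls 1 to 4. Both groups covered nearly the same range, and the log2 fold change was -0.04 ± 0.18 (95% interval -0.44 to 0.36, adjusted p = 0.921). The isoform of many dividing cells, SLC25A5, was at 15.7, 12.2, 25.9 and 14.9 CPM in banded 1 to 4, and at 15.3 to 17.8 CPM in controls (log2 fold change 0.05 ± 0.21, adjusted p = 0.907). Banded 3 held the most SLC25A5, above every control. The log2 ratio of SLC25A4 to SLC25A5 per length was 6.45, 6.36, 5.38 and 6.73 in banded 1 to 4, and 6.16 to 6.39 in controls. Banded 3 thus had the lowest share of the muscle isoform, while the group means of the ratio were 6.23 in banded pigs and 6.28 in controls (exact permutation p = 0.971). The log2 ratio of SLC25A4 to SLC25A6 averaged 2.72 ± 0.38 in banded pigs and 2.68 ± 0.10 in controls (exact permutation p = 0.80, n = 4 each). SLC25A6 was at 552, 562, 718 and 614 CPM in banded 1 to 4, and at 600, 679, 617 and 728 CPM in controls 1 to 4 (adjusted p = 0.721). SLC25A3 was at 745, 642, 811 and 1028 CPM in banded 1 to 4, and at 675 to 735 CPM in controls. Its banded values lay on both sides of the control range (log2 fold change 0.21 ± 0.16, 95% interval -0.14 to 0.56, adjusted p = 0.463). The peroxisomal carrier SLC25A17 was at 9.56 to 17.2 CPM in banded pigs and 8.801 to 11.3 CPM in controls (adjusted p = 0.511).

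**Figure D3:**
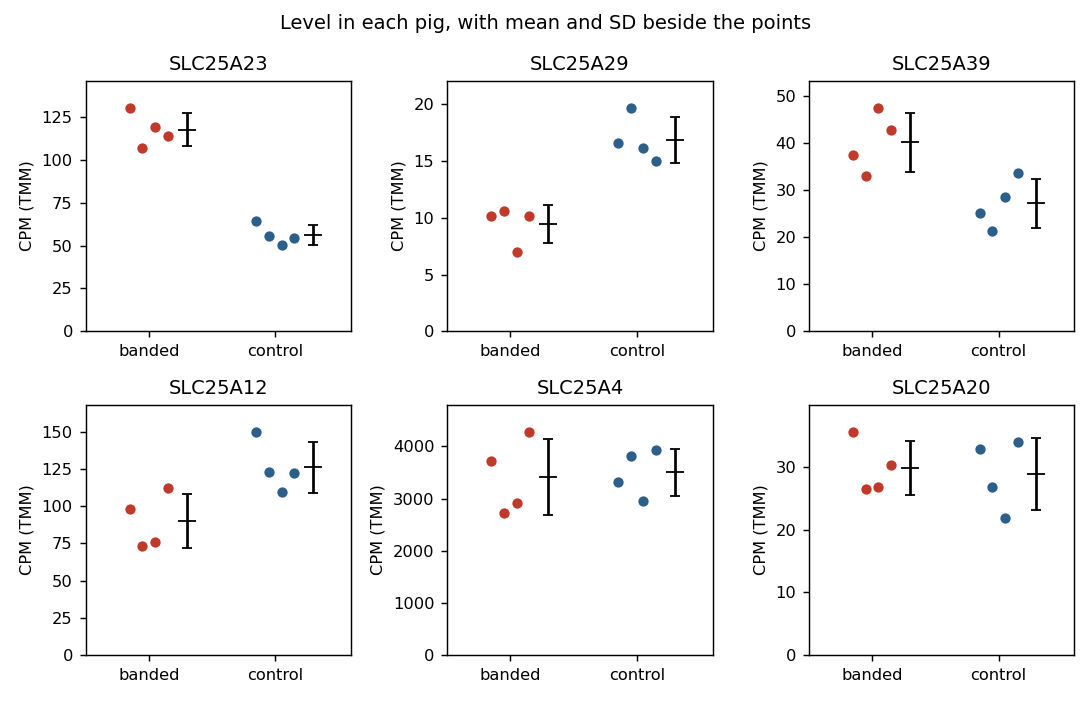
Level in CPM (TMM-normalised) of 6 carriers in each pig, with the group mean and SD drawn beside the points and each axis starting at 0. The groups are apart for SLC25A23 and SLC25A29, overlap by single pigs for SLC25A12 and SLC25A39, and share one range for SLC25A4 and SLC25A20.

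Among the amino acid carriers, SLC25A29 fell and none of the other 5 members passed the test. SLC25A29 carries basic amino acids such as arginine and lysine. Its gene model (ENSSSCG00000002520) lies on chromosome 7 at 121178161 to 121192278, minus strand. SLC25A29 was at 10.2, 10.6, 6.96 and 10.1 CPM in banded 1 to 4, and at 16.6, 19.7, 16.1 and 15.0 CPM in controls 1 to 4. Every banded pig was below every control, with banded 3 lowest. The log2 fold change was -0.83 ± 0.17 (95% interval -1.20 to -0.46, adjusted p = 0.0151). Without control 2 the call was lost (log2 fold change -0.75, adjusted p = 0.0588). It was also lost when libraries were scaled by nuclear respiratory chain and ATP synthase counts (-0.79, adjusted p = 0.123). The authors' deposited table lists SLC25A29 at 0.71 ± 0.170 on the log2 scale for control over banded, with an adjusted p of 0.000876. SLC25A47, which starts next to SLC25A29 on the opposite strand, was at 0.209 to 0.726 CPM in banded pigs and 0.264 to 0.638 CPM in controls.

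The aspartate/glutamate carriers SLC25A12 and SLC25A13 belong to the malate-aspartate shuttle, which brings reducing equivalents into the matrix. SLC25A12, the main form in muscle, was at 98.3, 73.4, 76.2 and 112 CPM in banded 1 to 4, and at 150, 123, 110 and 122 CPM in controls 1 to 4. Only banded 4 reached into the control range. SLC25A12 had a log2 fold change of -0.49 ± 0.16 and missed the threshold (adjusted p = 0.1002), but was called lower with library size alone (0.0448) and without banded 4 (0.0454). SLC25A13, the main form in liver, was at 9.38, 12.4, 11.995 and 14.7 CPM in banded 1 to 4, and at 11.9, 7.80, 8.94 and 9.31 CPM in controls 1 to 4 (log2 fold change 0.35 ± 0.19, adjusted p = 0.277). The log2 ratio of SLC25A12 to SLC25A13 was 3.96, 3.14, 3.24 and 3.51 in banded 1 to 4, and 4.23, 4.55, 4.19 and 4.29 in controls 1 to 4. All banded ratios were below all control ratios, with a mean difference of -0.85 (exact two-sided permutation p = 0.0286, 0.157 adjusted over the 11 pairs). The enzymes of the same shuttle, GOT1, GOT2, MDH1 and MDH2, had log2 fold changes of -0.42 to -0.07 and none was called. The mitochondrial glutamate carrier SLC25A22 was at 2.64 to 4.73 CPM in banded pigs and 3.16 to 5.37 CPM in controls (adjusted p = 0.584). The ornithine carrier SLC25A15 was at 3.10 to 7.33 CPM in banded pigs and 3.97 to 6.04 CPM in controls (adjusted p = 0.855).

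**Figure D4:**
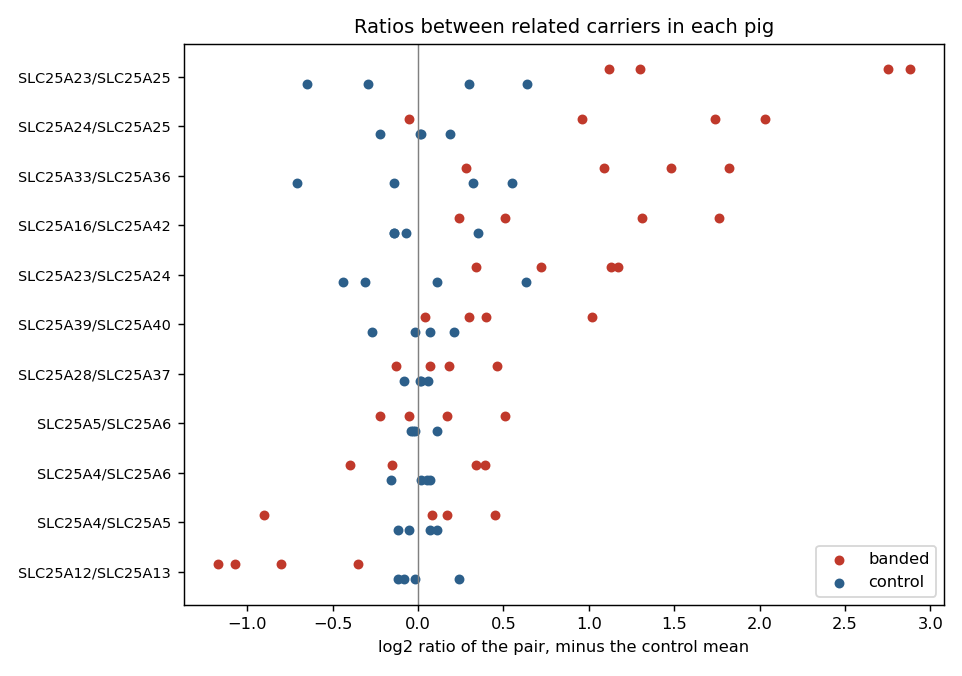
Log2 ratio of RPKM between related carriers in each pig, shown relative to the control mean of each pair. SLC25A23/SLC25A25 (higher in all banded pigs) and SLC25A12/SLC25A13 (lower in all banded pigs) are the pairs whose groups do not overlap, and the adjusted p of both is 0.157.

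The carriers of cofactors, nucleotides and glutathione held 8 members, of which none passed the test. SLC25A39, needed for glutathione uptake into mitochondria, was at 37.4, 32.9, 47.5 and 42.8 CPM in banded 1 to 4, and at 25.2, 21.3, 28.6 and 33.5 CPM in controls 1 to 4. Control 4 was just above banded 2, and the other values were separate. The log2 fold change of SLC25A39 was 0.56 ± 0.17 with an adjusted p of 0.0639. SLC25A39 did pass in DESeq2 (adjusted p = 0.0365), in limma-voom with quality weights (0.0451), without a filter on low counts (0.0494), without control 4 (0.0427) and with both banded 3 and control 4 left out (0.0494). In the authors' deposited table the adjusted p of SLC25A39 is 0.0927. Its paralogue SLC25A40 was at 12.4, 9.16, 7.98 and 11.09 CPM in banded 1 to 4, and at 8.21, 8.79, 9.92 and 9.94 CPM in controls 1 to 4 (adjusted p = 0.675). The log2 ratio of SLC25A39 to SLC25A40 averaged 4.12 ± 0.42 in banded pigs and 3.68 ± 0.20 in controls, with overlap (exact permutation p = 0.0857, n = 4 each).

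SLC25A33 and SLC25A36 carry pyrimidine nucleotides. SLC25A33 was at 4.45, 2.25, 9.06 and 5.74 CPM in banded 1 to 4, and at 1.99, 3.22, 1.63 and 3.83 CPM in controls 1 to 4. Banded 2 lay among the controls and banded 3 was highest (log2 fold change 1.01 ± 0.41, adjusted p = 0.164). SLC25A36 was at 28.3 to 38.5 CPM in banded pigs and 33.9 to 41.3 CPM in controls (log2 fold change -0.25 ± 0.13, adjusted p = 0.272). SLC25A16 and SLC25A42, linked to coenzyme A in mitochondria, were low. SLC25A16 was at 1.39, 1.25, 1.89 and 1.95 CPM in banded 1 to 4, and at 0.704, 1.13, 0.871 and 0.826 CPM in controls 1 to 4. The groups did not overlap, but the counts were few and SLC25A16 was not called (log2 fold change 0.87 ± 0.35, adjusted p = 0.162). SLC25A42 was at 4.64 to 9.02 CPM in banded pigs and 5.90 to 10.1 CPM in controls (adjusted p = 0.8291). The S-adenosylmethionine carrier SLC25A26 was at 8.69 to 11.7 CPM in banded pigs and 7.22 to 9.51 CPM in controls (adjusted p = 0.286).

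SLC25A20, the carnitine/acylcarnitine carrier that brings long-chain fatty acids to beta-oxidation, was at 35.7, 26.5, 26.8 and 30.4 CPM in banded 1 to 4, and at 33.0, 26.8, 21.8 and 33.98 CPM in controls 1 to 4. The groups covered the same range, and the 95% interval of the log2 fold change ran from -0.31 to 0.41 (adjusted p = 0.897). Of its 9 tested partners in the carnitine shuttle and beta-oxidation none was called, with a median log2 fold change of 0.00. ACSL1, which activates long-chain fatty acids, came nearest at 96.5 to 196 CPM in banded pigs and 179 to 264 CPM in controls (log2 fold change -0.73 ± 0.22, adjusted p = 0.0738), and ACSL1 passed in DESeq2 (0.0194) and without banded 1 (log2 fold change -0.97, 0.0176).

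The di- and tricarboxylate carriers held 3 members and none was called. SLC25A1, which exports citrate, was at 39.8, 19.6, 19.5 and 24.96 CPM in banded 1 to 4, and at 21.8, 15.4, 19.3 and 23.5 CPM in controls 1 to 4. Banded 1 lay far above the other 7 pigs (log2 fold change 0.38 ± 0.23, adjusted p = 0.361), and without it the log2 fold change was 0.10. Banded 1 also held the most adipocyte marker RNA, with a sum of 705.1 CPM, against 153.8 to 241.9 CPM in the other banded pigs and 319 to 394.8 CPM in controls, and its part in SLC25A1 was not tested. SLC25A11, the oxoglutarate carrier, was at 0.587 to 1.32 CPM in banded pigs and 1.31 to 2.70 CPM in controls (log2 fold change -0.76 ± 0.39, adjusted p = 0.268), values that count only the part of its model not shared with PFN1. SLC25A21, the oxodicarboxylate carrier, was at 0.799 to 0.947 CPM in banded pigs and 0.646 to 1.20 CPM in controls. SLC25A10, the dicarboxylate carrier, and SLC25A32, which transports folate or FAD, were outside the rule because the deposited table pairs them with human genes only as one-to-many matches. SLC25A10 was at 12.8 to 17.6 CPM in banded pigs and 9.91 to 14.9 CPM in controls (adjusted p = 0.257). SLC25A32 was at 5.72 to 6.50 CPM in banded pigs and 4.32 to 4.90 CPM in controls, without overlap and without a call (adjusted p = 0.232).

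The mitoferrins SLC25A28 and SLC25A37 bring iron into mitochondria for heme and iron-sulfur clusters. SLC25A28 was at 34.01, 29.4, 30.98 and 40.98 CPM in banded 1 to 4, and at 33.7 to 34.998 CPM in controls (log2 fold change -0.01 ± 0.13, 95% interval -0.29 to 0.27, adjusted p = 0.962). SLC25A37, the form of red cell precursors, was at 4.96, 5.32, 3.71 and 6.47 CPM in banded 1 to 4, and at 5.51 to 5.89 CPM in controls (adjusted p = 0.711). The controls of both genes were tightly grouped, and banded pigs lay both above and below them. SLC25A38, the glycine carrier used in heme synthesis, was at 9.54, 12.5, 6.34 and 15.4 CPM in banded 1 to 4, and at 7.83 to 11.4 CPM in controls (adjusted p = 0.703). Banded 4, the library with the most erythroid marker RNA, was highest of all 8 for SLC25A28, SLC25A37 and SLC25A38, and the part of blood RNA in these values was not tested. Among 11 iron and heme partners of the mitoferrins, 1 was called higher and 2 lower. Over all genes tested, 3.47% were called higher and 3.5% lower. The 11 partners were chosen with earlier results of these data known. FTH1, the heavy chain of ferritin, rose to 3255 ± 836 CPM in banded pigs, against 1784 ± 229 CPM in controls (SD, n = 4 each, adjusted p = 0.0262). STEAP3, an endosomal iron reductase, fell to 10.7 ± 3.67 CPM in banded pigs, against 20.3 ± 2.80 CPM in controls (adjusted p = 0.0365). ALAS1, the first enzyme of heme synthesis outside red cells, fell to 66.8 ± 11.3 CPM in banded pigs, against 99.6 ± 9.17 CPM in controls (adjusted p = 0.0371). Leaving out single pigs ended each of these calls for some pigs, while the direction held. FTH1 was lost without banded 3, banded 4 or any of controls 1 to 3 (adjusted p up to 0.0920), with log2 fold changes of 0.75 to 0.97 over all 8 omissions. STEAP3 was lost without banded 2, banded 4 or any control (adjusted p up to 0.115), with log2 fold changes of -1.13 to -0.73. ALAS1 was lost without banded 1, banded 2 or any control (adjusted p up to 0.118), with log2 fold changes of -0.65 to -0.47. Scaling by respiratory chain and ATP synthase counts also ended the calls of STEAP3 (-0.87, adjusted p = 0.128) and ALAS1 (-0.56, adjusted p = 0.0568), and ALAS1 was lost with both banded 3 and control 4 left out (-0.60, adjusted p = 0.0560).

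The uncoupling protein relatives SLC25A14 and SLC25A27 were low and not called. SLC25A14 was at 3.98, 3.58, 2.44 and 3.93 CPM in banded 1 to 4, and at 2.32, 2.12, 2.92 and 4.59 CPM in controls 1 to 4 (adjusted p = 0.700). SLC25A27 was at 13.9, 12.6, 11.2 and 11.5 CPM in banded 1 to 4, and at 18.2, 13.8, 17.7 and 15.4 CPM in controls 1 to 4. Banded 1 just exceeded control 2 (log2 fold change -0.40 ± 0.15, adjusted p = 0.121). The 5 less well assigned members had log2 fold changes of -0.27 to 0.10 and none was called. SLC25A34, first of them by RPKM over all 8 pigs but with a level made uncertain by its shared exons, was at 21.9, 17.7, 3.49 and 13.7 CPM in banded 1 to 4, and at 20.2, 21.9, 8.85 and 17.6 CPM in controls 1 to 4 (adjusted p = 0.801). SLC25A35 was at 0.958 to 2.22 CPM in banded pigs and 1.71 to 2.20 CPM in controls (adjusted p = 0.720), and SLC25A43, whose gene lies near SLC25A5 on the X chromosome, at 10.5 to 16.4 CPM in banded pigs and 10.96 to 16.2 CPM in controls (adjusted p = 0.883). SLC25A46, an outer membrane protein of mitochondrial dynamics, was at 28.1 to 34.1 CPM in banded pigs and 33.6 to 35.01 CPM in controls (adjusted p = 0.463). Of 5 relatives of the family with other symbols, MTCH1, MTCH2 and UCP2 were tested and none of these 3 was called. UCP3 had too few counts to be tested, and UCP1 was not matched to a gene model. MTCH1, an outer membrane protein, was at 71.6 to 79.5 CPM in banded pigs and 56.2 to 63.0 CPM in controls, without overlap (log2 fold change 0.34 ± 0.11, adjusted p = 0.0871), and passed in limma-voom (0.0436).

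The spread between pigs was larger in the banded group for 28 of the 35 carriers (80%), against 67.3% of all genes tested. The median SD of log2 CPM over the carriers was 0.31 in banded pigs and 0.22 in controls, against 0.32 in banded pigs and 0.23 in controls over all genes. SLC25A3 had an SD of 163 CPM in banded pigs and 27.6 CPM in controls. Banded 4 was the highest of all 8 libraries for 10 carriers; banded 3 was the lowest for 10 and the highest for 5, and banded 2 was the lowest for 9. The first principal component of the carriers took 39.8% of their variance and placed banded 3 at -3.40, the other banded pigs at -0.73 to 0.22 and the controls at 0.52 to 1.72.

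Carriers are delivered to the inner membrane by small chaperones and the TIM22 complex, and they work beside the respiratory chain and ATP synthase. None of the 14 tested genes of carrier import was called, with a median log2 fold change of 0.11. None of 45 nuclear respiratory chain subunits and none of 13 nuclear ATP synthase subunits was called, with medians of 0.00 and -0.04. Their summed levels varied between pigs: respiratory chain subunits summed to 9074 CPM in banded 2, 12180 to 13620 CPM in the other banded pigs and 10810 to 13780 CPM in controls. SLC25A4 and SLC25A3 were also at their lowest banded values in banded 2.

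**Figure D5:**
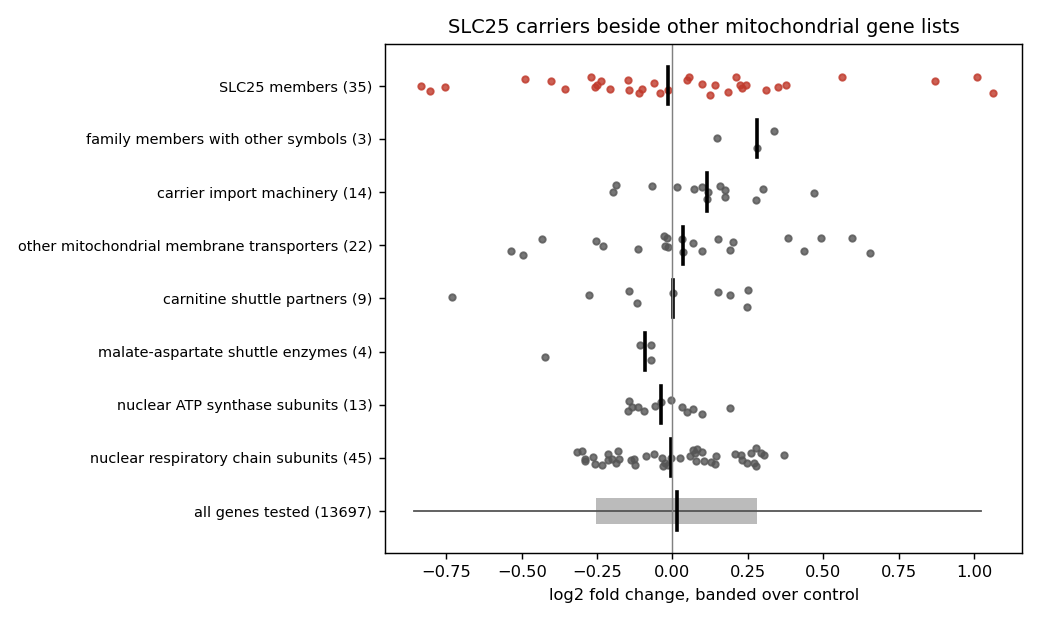
Log2 fold change, banded over control, of each tested gene of the SLC25 family and of 7 related lists, with the median of each list as a bar; for all 13697 genes the box spans the 25th to 75th percentile and the line the 5th to 95th (-0.86 to 1.02). The carriers spread more widely than the respiratory chain subunits, which lie between -0.32 and 0.37, and lie around a median near 0 like all genes. Many carriers were at lower levels than most respiratory chain subunits, and the part of counting error in their wider spread was not tested.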

How the data were processed

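The authors deposited raw counts of read pairs. Per the file headers, they were made with featureCounts 1.6.2 (both ends mapped, mapping quality 10 or more, strand setting 2) on the pig annotation of Ensembl release 106. Of 24 libraries in the command, 8 were analysed. Trimmomatic, HISAT2, Subread and DESeq2 are named, without versions, in the submitters' processing notes. The authors' deposited table of control over banded holds log2 values (fold change and SE), a Wald score, a mean normalised signal, and a p-value with its adjusted form; its model is not given in the sources used here.

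Genes passed filterByExpr (minimum count 10, minimum total 15), which all 35 members did. Counts were scaled by TMM and tested with edgeR 4.0.16 in R 4.3.3 (quasi-likelihood F test, robust, two-sided, threshold 0.05 over 13697 genes). DESeq2 1.42.0, limma 3.58.1 (voom), other scalings and filters, and leaving out each library were alternatives. The test was checked on simulated data, where 87.7% of 4-fold changes were detected. SE is the log2 fold change over the square root of F, and RPKM uses the deposited model length. Ratios used a prior count of 2 and an exact permutation test over 70 assignments. Symbols came from the authors' table (15616), a reference table (600) and RefSeq positions (691), and matched 183 of 205 list entries. Each library is 1 animal, numbered in record order, which pairs nothing. No library copied another (lowest chi-square per degree of freedom 29.18). The limit set by a count of 0 (3 counts, counting error only) was 0.0878 to 0.0967 CPM.

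The members and lists were chosen with earlier results of these data known. Values per library are given for called members, members with an adjusted p of 0.05 to 0.1, the most abundant member of each class and described paralogue pairs. From the other lists called genes are named, at most 3 a list. Per-library values of SLC25A3, SLC25A16, SLC25A27, SLC25A33, SLC25A37 and SLC25A38 were added after their values were seen. So were the genes ACSL1, MTCH1, MYL2, MYL4, ACTN2, TNNT2, TNNI3, ACTA1, TNNI2, CFD, PDGFRA, RGS5, CNN1 and SLC25A51. Counts over the family include 1 member that is not reported here by name.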

Additional observations from a re-analysis of the deposited data

Results flagged for a closer look

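In 2 of 70 groups of 4 pigs, 1 library stood far from the others. Chance alone would flag about 1 group in 20. SLC25A29 was at 6.96 CPM in banded 3, whereas the remaining banded pigs lay between 10.1 and 10.6 CPM, so the gap took 0.865 of the range. For SLC25A17, banded 1 stood at 17.2 CPM and the remaining banded pigs between 9.56 and 10.4 CPM (0.888 of the range).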

How the results depend on the processing

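No paired analysis was possible because the labels give the animals no shared replicate numbers. SLC25A23 stayed called in all 18 alternatives, with a log2 fold change of 0.96 to 1.14. Genes called numbered 1629 with DESeq2 and 477 with scaling by respiratory chain and ATP synthase counts (304 higher and 173 lower, against 475 and 479), where 1 carrier was called. With library size alone 303 were higher and 508 lower. Leaving out single pigs gave 399 to 962 genes and 1 to 3 carriers. The cause was not tested. SLC25A29 lost its call as given above. Of 626 log2 fold changes of carriers under alternatives, 582 kept direction and call, and 35 changed sign, none of them for a called gene. With limma-voom these were SLC25A5 (-0.09), SLC25A15 (-0.15) and SLC25A42 (0.02). With library size alone they were SLC25A5 (-0.05), SLC25A20 (-0.04) and SLC25A47 (-0.03), and with respiratory chain scaling SLC25A28 (0.00). Without both banded 3 and control 4, an alternative chosen after seeing the data, they were SLC25A4 (0.09), SLC25A5 (-0.18), SLC25A28 (0.03), SLC25A34 (0.07), SLC25A42 (0.06), SLC25A43 (0.13) and SLC25A47 (-0.22). Leaving out single pigs gave ranges across 0 for SLC25A4 (-0.17 to 0.05), SLC25A5 (-0.21 to 0.19), SLC25A15 (-0.08 to 0.31), SLC25A20 (-0.07 to 0.13), SLC25A28 (-0.12 to 0.05), SLC25A34 (-0.55 to 0.06), SLC25A38 (-0.02 to 0.37), SLC25A42 (-0.25 to 0.05), SLC25A43 (-0.20 to 0.05) and SLC25A47 (-0.16 to 0.34). The ratio differences crossed 0 for SLC25A4/SLC25A5 (-0.22 to 0.23), SLC25A4/SLC25A6 (-0.07 to 0.20) and SLC25A5/SLC25A6 (-0.03 to 0.21). P-values set the difference between the groups against the spread between these animals, and changes of 1.5-fold were mostly below the reach of 4 pigs per group.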
